A study of Mus musculus with 12 samples.

Results

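The genes described here are 10 components of WNT signalling, namely the receptors *Fzd4*, *Fzd5*, *Fzd6*, *Fzd7* and *Fzd8*, the co-receptors *Lrp5* and *Lrp6*, the secreted inhibitor *Sfrp1*, and the nuclear effectors *Ctnnb1* and *Tcf7*. They were taken as a list of names and found by gene identifier in a table of 55335 genes, where all 10 were present and all 10 passed the filter on low counts that left 18234 genes for testing. RNA was sequenced from hematopoietic stem cells (HSCs) sorted from mouse bone marrow. *Ythdc1*Δ/Δ HSCs came from *Ythdc1* fl/fl Mx1-Cre mice that received pIpC, and *Ythdc1*+/+ HSCs came from *Ythdc1*+/+ Mx1-Cre mice that received pIpC too. All mice were on a C57BL/6 background, and the methods give an age of 8 weeks. *Ythdc1* encodes a nuclear reader of N6-methyladenosine (m6A), a methyl mark on RNA, and the Cre of this line is switched on by interferon in many cell types, so deletion is not restricted to HSCs. Each genotype had 6 libraries from 3 sample numbers. Those of *Ythdc1*Δ/Δ HSCs are KO176, KO177 and KO209, those of *Ythdc1*+/+ HSCs are WT178, WT180 and WT207, and the 2 libraries of a number were summed. Whether each number is a separate mouse is not given in the labels. The p-values therefore measure the spread between these samples only, which may be technical. The depth of a summed sample was 45939230 to 46937648 counts in *Ythdc1*Δ/Δ HSCs, against 42098649 to 48095239 counts in *Ythdc1*+/+ HSCs.

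WNT proteins are secreted, lipid-carrying ligands that bind a Frizzled receptor together with LRP5 or LRP6 at the cell surface. When they do, the complex that marks beta-catenin for degradation is held back, and beta-catenin enters the nucleus and joins TCF/LEF proteins on target genes. Secreted Frizzled-related proteins such as SFRP1 carry a domain like that of the receptors and can bind WNT outside the cell. In bone marrow, WNT ligands and inhibitors come from stromal as well as blood cells, and the strength of the signal is known to affect stem cell maintenance. Beta-catenin is controlled largely at the protein level, which mRNA counts do not measure.

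YTHDC1 binds m6A, and GGACT is a common form of the sequence in which m6A is placed, so each gene's longest annotated coding transcript (GENCODE vM21, GRCm38) was searched for these letters on the transcribed strand. The match nearest the stop codon is shown for 9 of the genes, since m6A is often found there. Each is given as 27 bases of mRNA in DNA letters with GGACT in capitals. The label coding means only that the match starts before the stop codon, since the start codon was not checked. In *Fzd7* the nearest match was far from the stop codon, at -1822 bases (minus for before it). Whether it lies in the coding part or before the start codon was not tested.
*Fzd4* (coding, chr7:89407729-89407755, + strand): ttttggcagccGGACTcaagtggggtc
*Fzd5* (after the stop codon, chr1:64734441-64734467, - strand): caggtttttttGGACTgtgtggtctaa
*Fzd6* (coding, chr15:39035094-39035120, + strand): gccaaagatcgGGACTgtggggaatct
*Fzd7* (coding, chr1:59482843-59482869, + strand): cggcgccgggaGGACTctcatgcgccg
*Lrp5* (coding, chr19:3585027-3585053, - strand): tccccctgcacGGACTcgtcctgacct
*Lrp6* (coding, chr6:134450783-134450809, - strand): tccccctgcacGGACTcctcctgagga
*Sfrp1* (after the stop codon, chr8:23446487-23446513, + strand): gatactggggcGGACTggggaagggga
*Ctnnb1* (coding, chr9:120958593-120958619, + strand): ctgcagatcttGGACTggacattggtg
*Tcf7* (after the stop codon, chr11:52253842-52253868, - strand): ccagctccccaGGACTcaccctcgtat

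The first 17 bases of the *Lrp5* and *Lrp6* windows are the same, and in both transcripts the match starts 10 bases before the stop codon. In *Sfrp1* it starts 12 bases after the first base of the stop codon. The density of GGACT was highest in *Lrp5*, with 17 matches or 3.29 per kilobase, and lowest in *Fzd7*, with 1 match or 0.221 per kilobase. Across the longest coding transcripts of 21901 genes the median was 1.01 per kilobase and 87.6% held at least 1 match. The 2 genes with the largest genotype differences, given below, lay on either side of that median, *Fzd8* at 1.67 per kilobase and *Sfrp1* at 0.457 per kilobase. Matches are letters only, and m6A was not measured here. RefSeq promoter windows of GRCm38.p6, from 250 bases before to 50 bases after a start site, were found for *Fzd4*, *Fzd5*, *Fzd7*, *Ctnnb1* and *Tcf7*, 5 of the 10 genes, as 7 windows. CTTTGA, the core to which TCF/LEF proteins bind, was searched on both strands and occurred in 0 of these 7 windows and in 16.003% of all 32851 windows.

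Levels are given as CPM, which sets the count of a gene against the sample's total after TMM scaling, and genes were compared with each other only per kilobase of exons. *Ctnnb1*, which encodes beta-catenin, was far above all others, at 44.6 ± 4.502 CPM per kilobase in *Ythdc1*Δ/Δ HSCs, against 38.4 ± 4.34 CPM per kilobase in *Ythdc1*+/+ HSCs (SD, n = 3 each). *Fzd6* and *Lrp6* came next, at 1.64 ± 0.744 and 1.16 ± 0.152 CPM per kilobase in *Ythdc1*Δ/Δ HSCs and at 1.56 ± 0.324 and 1.06 ± 0.119 CPM per kilobase in *Ythdc1*+/+ HSCs (SD, n = 3). Below *Ctnnb1*, the samples of neighbours in the order overlapped from *Fzd6* down to *Fzd7* in both genotypes, so *Fzd6*, *Lrp6*, *Lrp5*, *Tcf7* and *Fzd7* were not set apart step by step by these samples.

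A second, lower group held *Fzd4*, *Fzd5*, *Fzd8* and *Sfrp1*. Its order differed between the genotypes. In *Ythdc1*Δ/Δ HSCs it ran *Fzd4*, *Fzd5*, *Sfrp1* and *Fzd8* from high to low, with only *Fzd5* and *Sfrp1* overlapping as neighbours. In *Ythdc1*+/+ HSCs it ran *Sfrp1*, *Fzd4*, *Fzd8* and *Fzd5*, with *Sfrp1* above *Fzd4* in every sample and the remaining neighbours overlapping. These 4 genes rested on 5 to 64 summed counts per sample in *Ythdc1*Δ/Δ HSCs, against 24 to 89 summed counts in *Ythdc1*+/+ HSCs. The limit that a count of 0 allows is taken here as 3 counts.

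**Figure D1:**
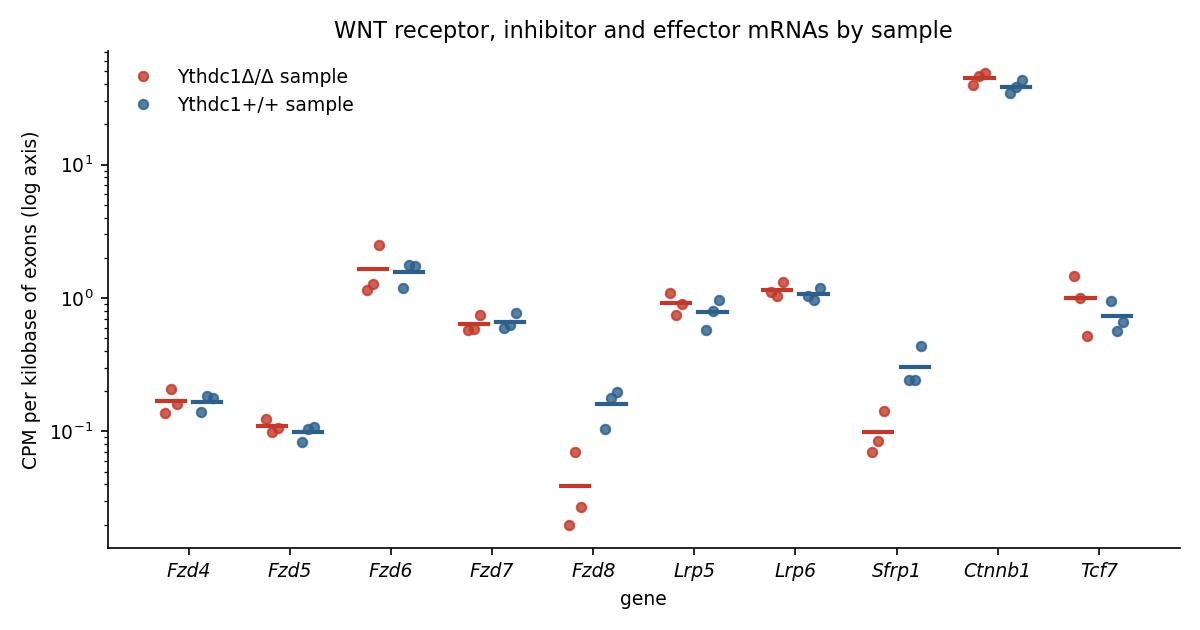
Level of each WNT gene (horizontal axis) in CPM per kilobase of exons (vertical axis, log scale). Points are the 3 summed samples of a genotype, bars are their means, with *Ythdc1*Δ/Δ in red on the left and *Ythdc1*+/+ in blue on the right. *Fzd8* and *Sfrp1* are the genes whose red and blue points do not overlap, and *Ctnnb1* lies near 44.6 and 38.4, above every other gene.

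Between the genotypes, 0 of the 10 genes passed an adjusted p of 0.05 in edgeR's quasi-likelihood test, against 0.137% of all tested genes (25 genes). At an unadjusted p under 0.05 there were 2, *Fzd8* and *Sfrp1*, both lower in *Ythdc1*Δ/Δ HSCs, where 9.48% of all tested genes passed and 5.20% passed as lower. The same 2 genes were the ones whose samples did not overlap between genotypes, against 16.3% of all tested genes and 8.59% in the lower direction. The other 8 had log2 fold changes between -0.06 and 0.45. Over the list 7 genes were higher and 3 lower, and the median of their log2 fold changes was 0.10, against -0.01 over all tested genes.

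**Figure D2:**
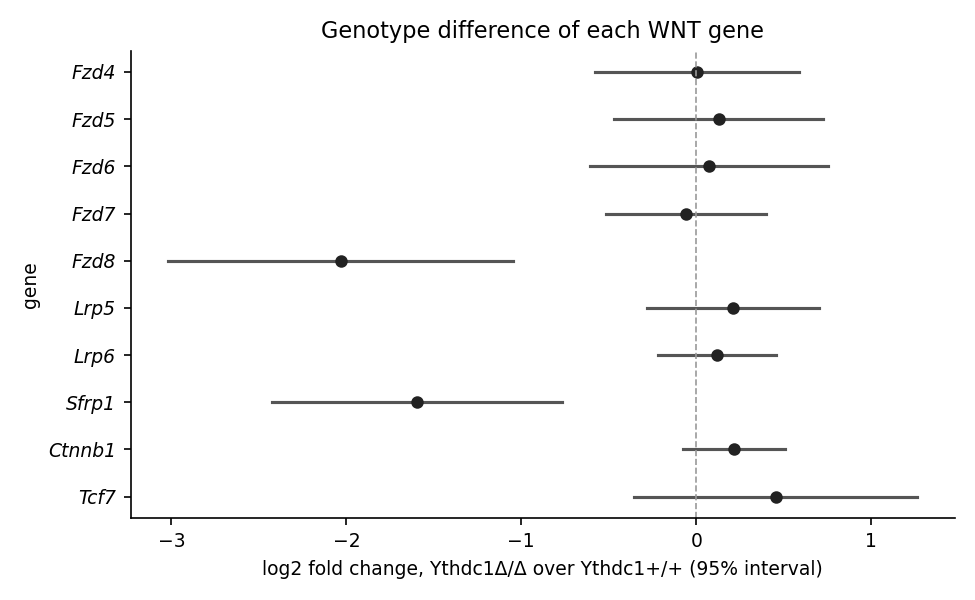
Log2 fold change of *Ythdc1*Δ/Δ over *Ythdc1*+/+ (horizontal axis) for each WNT gene (vertical axis). Points are edgeR estimates from 3 samples per genotype and lines their 95% intervals. The intervals of *Fzd8* (-3.02 to -1.05) and *Sfrp1* (-2.43 to -0.76) lie below 0 and the other 8 include 0.

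*Fzd8* encodes a Frizzled receptor that pairs with LRP5 or LRP6, and is a gene with a single exon on chromosome 18 of mm10 (9212163 to 9218136). Its level was 0.118, 0.417 and 0.161 CPM in *Ythdc1*Δ/Δ samples KO176, KO177 and KO209, against 0.623, 1.06 and 1.17 CPM in *Ythdc1*+/+ samples WT178, WT180 and WT207. The 3 *Ythdc1*Δ/Δ values lay below the 3 *Ythdc1*+/+ values, and their mean was 24.4% of the *Ythdc1*+/+ mean. The log2 fold change was -2.03 (standard error 0.44), with adjusted p = 0.193 and unadjusted p = 0.000997 in the quasi-likelihood test of edgeR. By p it was gene 92 of the 18234. It passed the filter on low counts through the *Ythdc1*+/+ samples, since 1 of 3 *Ythdc1*Δ/Δ and 3 of 3 *Ythdc1*+/+ samples reached the filter's minimum. A 2-sided exact permutation test of the sample values gave p = 0.1, the smallest that 3 samples against 3 allow.

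The counts of *Fzd8* were low and fell unequally into the libraries. The first and second libraries held 2 and 3 counts for KO176, 19 and 0 for KO177, and 8 and 0 for KO209. They held 14 and 12 for WT178, 35 and 16 for WT180, and 37 and 18 for WT207. The share of *Fzd8* counts in the first library differed from that library's share of all counts beyond the exact 95% binomial interval in 4 of the 6 pairs. A count of 0 in the second library of KO177 allows up to 0.137 CPM and in that of KO209 up to 0.123 CPM, for counting error only. Library KO177_1, at 0.806 CPM, lay within the range of the *Ythdc1*+/+ libraries (0.565 to 1.63 CPM), so the genotypes overlapped by single library although not by summed sample. Without that library the log2 fold change was -3.05 (adjusted p = 0.0694 from edgeR), with the first libraries alone it was -1.58 (adjusted p = 0.291), and with the second libraries alone it was -3.77 (adjusted p = 0.167). Without sample KO177 it was -2.74.

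*Sfrp1* encodes a secreted inhibitor that binds WNT ligands and lies on chromosome 8 of mm10 (23411502 to 23449632, + strand, 3 exons). Its level was 0.307, 0.373 and 0.626 CPM in *Ythdc1*Δ/Δ samples KO176, KO177 and KO209, against 1.06, 1.06 and 1.90 CPM in *Ythdc1*+/+ samples WT178, WT180 and WT207. All *Ythdc1*Δ/Δ samples lay below all *Ythdc1*+/+ samples, and the mean was 32.6% of that of *Ythdc1*+/+. The log2 fold change was -1.59 (standard error 0.37), with adjusted p = 0.220 and unadjusted p = 0.0016 in the quasi-likelihood test of edgeR. It was gene 132 by p, and the 2-sided exact permutation test gave p = 0.1.

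Unlike *Fzd8*, *Sfrp1* was spread over the libraries of a number, and the shares of the pair left the exact binomial interval in 1 of 6 pairs. The *Ythdc1*Δ/Δ libraries held 6 to 18 counts and the *Ythdc1*+/+ libraries 20 to 59 counts. In CPM all 6 *Ythdc1*Δ/Δ libraries (0.274 to 0.735 CPM) were below all 6 *Ythdc1*+/+ libraries (0.942 to 2.48 CPM). Library WT207_2 was the highest, with 59 counts where WT207_1 had 30. Without sample WT207 the log2 fold change was -1.25, and without sample KO209 it was -1.97.

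**Figure D3:**
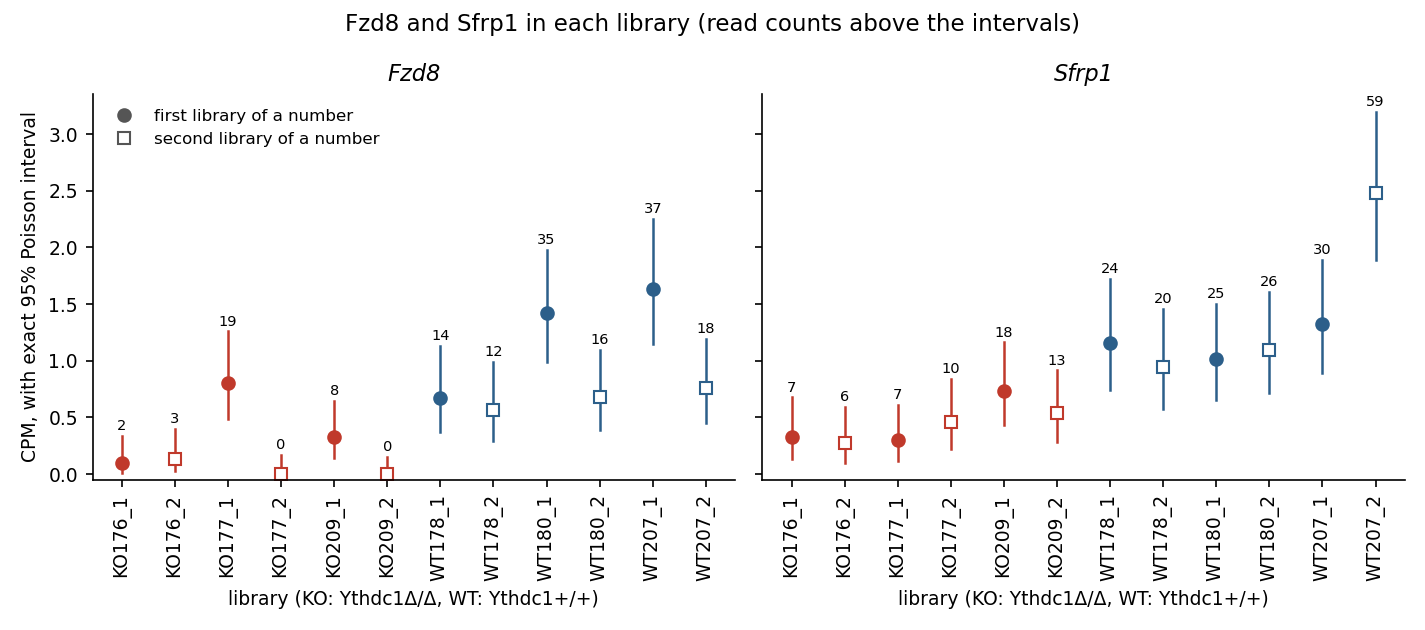
CPM of *Fzd8* and *Sfrp1* (vertical axis) in each of the 12 libraries (horizontal axis), *Ythdc1*Δ/Δ in red on the left and *Ythdc1*+/+ in blue on the right. Filled circles are the first and open squares the second library of a sample number, lines are exact 95% Poisson intervals of the count, and the numbers are counts. *Fzd8* had 0 counts in KO177_2 and KO209_2 and 19 in KO177_1, and *Sfrp1* was lower in each *Ythdc1*Δ/Δ library than in any *Ythdc1*+/+ library.

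Whether the 2 genes passed the threshold depended on the processing. *Fzd8* and *Sfrp1* passed an adjusted p of 0.05 in DESeq2 (adjusted p = 0.0181 and 0.0203), which called 1.21% of all genes. They also passed when the 12 libraries were tested as separate samples in edgeR (adjusted p = 0.0455 and 0.0128), where 4.83% of genes were called, and when the library digit was added to that fit as a block (adjusted p = 0.0247 and 0.0176), where 4.61% were called. *Fzd8* alone passed in edgeR without the filter on low counts (adjusted p = 0.0300), where 0.160% of genes were called, and *Sfrp1* alone when the numbers KO209 and WT207 were set apart from the other 4 by a term in the model (adjusted p = 0.0248), where 0.466% were called. In voomLmFit, where the libraries of a number share a random effect, neither passed (adjusted p = 0.319 for *Fzd8* and 0.0829 for *Sfrp1*). In the edgeR fits of 12 libraries those of a number count as samples of their own, although they resembled each other more than other libraries of their genotype. The correlation across genes of deviations from the genotype mean was 0.061 to 0.453 for the 6 pairs of a number, against -0.540 to -0.191 for the 24 other pairs of a genotype. Taking off the genotype mean by itself pushes such correlations below 0, so only the difference between the kinds of pair is read. Over all alternatives that gave a value the log2 fold change was -3.77 to -1.58 for *Fzd8* (18 alternatives, adjusted p = 0.0181 to 0.544 from the tools named) and -1.97 to -1.25 for *Sfrp1* (19 alternatives, adjusted p = 0.0128 to 0.578).

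**Figure D4:**
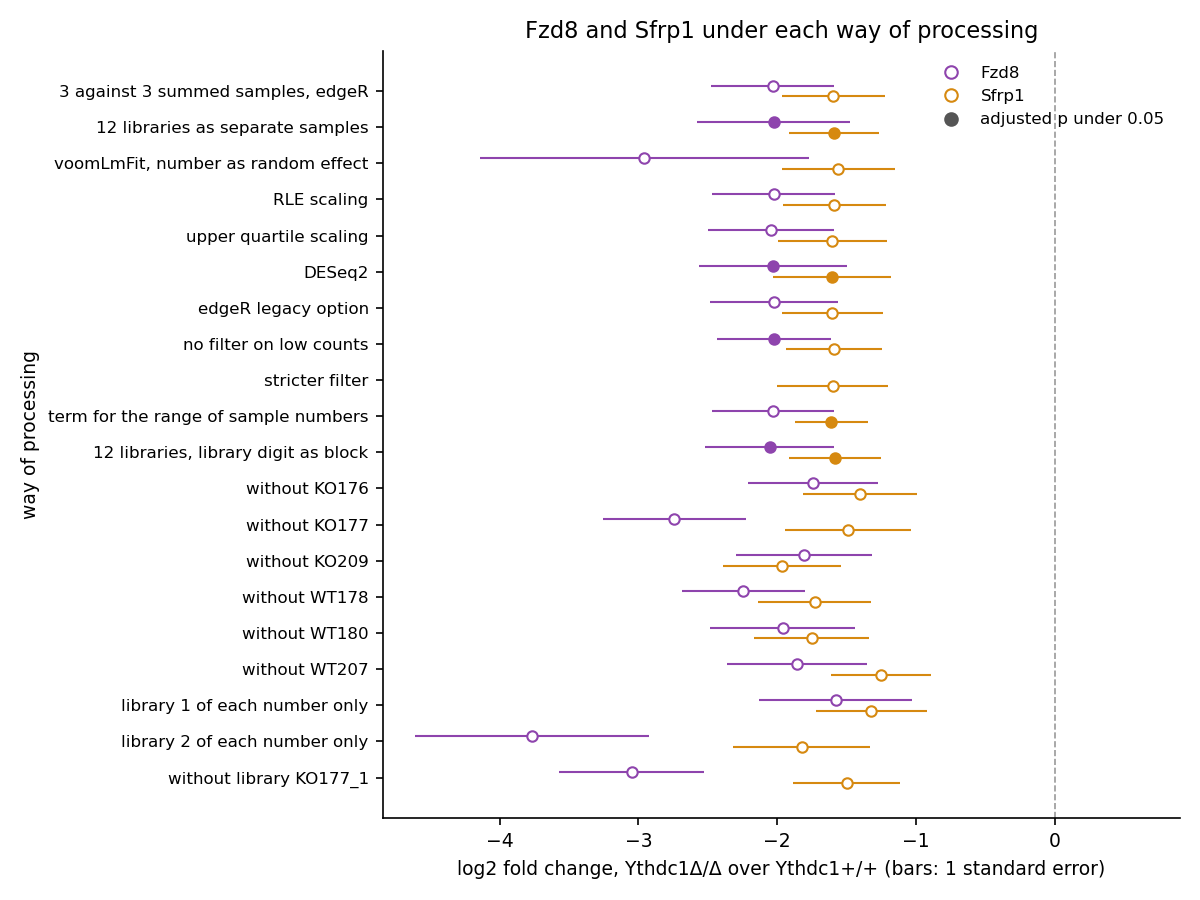
Log2 fold change of *Ythdc1*Δ/Δ over *Ythdc1*+/+ (horizontal axis) for *Fzd8* and *Sfrp1* under each way of processing (vertical axis). Bars are 1 standard error and filled points have an adjusted p under 0.05. All points lie below 0, between -3.77 and -1.25, and the stricter filter removed *Fzd8*.

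The other Frizzled receptors among the 10 genes did not separate by genotype. *Fzd6*, a receptor often linked to WNT signalling outside the beta-catenin branch, was at 5.48, 6.17 and 12.01 CPM in *Ythdc1*Δ/Δ samples KO176, KO177 and KO209, against 5.71, 8.48 and 8.34 CPM in *Ythdc1*+/+ samples WT178, WT180 and WT207. KO209 was the highest of the 6 samples and KO176 the lowest. The log2 fold change was 0.07 (standard error 0.30, 95% interval -0.61 to 0.75), and without KO209 it was -0.37. Both libraries of KO209 were high, at 13.8 and 10.5 CPM.

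*Fzd7*, a receptor of the beta-catenin branch, was at 2.60, 2.66 and 3.39 CPM in *Ythdc1*Δ/Δ samples, against 2.71, 2.84 and 3.48 CPM in *Ythdc1*+/+ samples, a log2 fold change of -0.06 (95% interval -0.52 to 0.40). *Fzd4*, which also serves as the receptor of the ligand norrin, was at 0.922, 1.40 and 1.07 CPM in *Ythdc1*Δ/Δ samples, against 0.935, 1.24 and 1.19 CPM in *Ythdc1*+/+ samples, a log2 fold change of 0.01 (95% interval -0.58 to 0.59). The samples of both genes overlapped between the genotypes. *Fzd5* was lowest of these receptors in counts, with 31 to 36 in *Ythdc1*Δ/Δ samples, against 24 to 35 in *Ythdc1*+/+ samples, a log2 fold change of 0.13 (95% interval -0.47 to 0.73). Of its exons 17.8% overlap another gene, Gm38058, whose reads cannot be told apart without strand.

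The share of *Fzd8* in the Frizzled mRNA, per kilobase and over all 10 Frizzled genes, was low in both genotypes and did not overlap between them. It made up 0.469%, 1.76% and 0.554% in *Ythdc1*Δ/Δ samples, against 2.59%, 3.61% and 4.38% in *Ythdc1*+/+ samples. The share of *Fzd3* did not overlap either, at 3.19%, 4.71% and 4.59% in *Ythdc1*Δ/Δ samples, against 6.84%, 5.05% and 7.40% in *Ythdc1*+/+ samples. Most of the Frizzled mRNA came from *Fzd6* and *Fzd9*. *Fzd6* made up 36.8% ± 12.7 in *Ythdc1*Δ/Δ HSCs, against 34.7% ± 4.73 in *Ythdc1*+/+ HSCs, and *Fzd9* made up 33.4% ± 12.7 in *Ythdc1*Δ/Δ HSCs, against 31.1% ± 7.42 in *Ythdc1*+/+ HSCs (SD, n = 3). The summed Frizzled level was 3.97 to 4.88 CPM per kilobase in *Ythdc1*Δ/Δ samples, against 4.02 to 4.90 CPM per kilobase in *Ythdc1*+/+ samples, so the ranges nearly coincided.

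The co-receptors had higher means in *Ythdc1*Δ/Δ HSCs by less than the spread of the samples. *Lrp6*, the co-receptor phosphorylated when WNT binds, was at 15.2, 14.05 and 18.1 CPM in *Ythdc1*Δ/Δ samples KO176, KO177 and KO209, against 14.1, 13.2 and 16.3 CPM in *Ythdc1*+/+ samples WT178, WT180 and WT207, a log2 fold change of 0.12 (95% interval -0.22 to 0.45). *Lrp5*, its homologue, was at 10.6, 7.20 and 8.78 CPM in *Ythdc1*Δ/Δ samples, against 5.56, 7.83 and 9.47 CPM in *Ythdc1*+/+ samples, a log2 fold change of 0.21 (95% interval -0.28 to 0.70). Both genes overlapped between the genotypes. The ratio of *Lrp6* to *Lrp5* per kilobase was 1.29 ± 0.236 in *Ythdc1*Δ/Δ HSCs, against 1.41 ± 0.346 in *Ythdc1*+/+ HSCs (SD, n = 3), and it was above 1 in all 6 samples.

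*Ctnnb1* was at 205, 238 and 250.5 CPM in *Ythdc1*Δ/Δ samples KO176, KO177 and KO209, against 177.7, 198 and 223 CPM in *Ythdc1*+/+ samples WT178, WT180 and WT207. The 2 highest samples were *Ythdc1*Δ/Δ and the 2 lowest *Ythdc1*+/+, with KO176 below WT207. The log2 fold change was 0.21 (standard error 0.13, 95% interval -0.08 to 0.51), with adjusted p = 0.644 from edgeR. It was 0.37 in the first libraries alone, 0.058 in the second libraries alone and 0.13 without library KO177_1. Without KO176 or WT207 it was 0.30 each, and the samples did not overlap. That lack of overlap had to follow, since KO176 below WT207 was the only pair out of order. Over all tested genes 22.1% did not overlap without KO176 and 23.6% without WT207. *Ctnnb1* is the best measured of these genes, with 7409 to 12412 counts per sample, although 15.1% of its exons overlap those of Mir7090 and *Ulk4*.

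*Tcf7*, which encodes TCF1, a partner of beta-catenin that is also a marker of T lineage cells, was at 4.44, 3.03 and 1.57 CPM in *Ythdc1*Δ/Δ samples KO176, KO177 and KO209, against 2.88, 1.72 and 1.98 CPM in *Ythdc1*+/+ samples WT178, WT180 and WT207. The *Ythdc1*Δ/Δ samples held both the highest and the lowest value. The log2 fold change was 0.45 (standard error 0.36, 95% interval -0.36 to 1.26). It was 0.076 without KO176, 0.30 without library KO177_1 and 0.77 without KO209, where the samples did not overlap and the unadjusted p was 0.0156 in edgeR. KO209 was the lowest sample, and without it 34.7% of all tested genes did not overlap and 16.3% had an unadjusted p under 0.05. The first and second libraries of KO177 had 97 and 41 counts, and 3 of the 6 pairs fell outside the exact binomial interval. Of the T, NK and innate lymphoid markers, 3 of 8 tested were higher and 0 had an unadjusted p under 0.05, and their summed level was 558 to 774 CPM in *Ythdc1*Δ/Δ samples, against 671 to 814 CPM in *Ythdc1*+/+ samples. Most of that sum was *Nkg7*, a granule gene of cytotoxic cells. Without it the markers summed to 67.5 to 89.6 CPM in *Ythdc1*Δ/Δ samples, against 75.8 to 91.5 CPM in *Ythdc1*+/+ samples. Most of that remainder was *Lck*, at a mean of 49.0 CPM in *Ythdc1*Δ/Δ HSCs, against 47.4 CPM in *Ythdc1*+/+ HSCs, and *Gata3*, at 25.1 CPM against 31.4 CPM. The T-cell genes *Cd3d*, *Cd3g* and *Cd4* held 19 to 114 counts in any sample of *Ythdc1*Δ/Δ HSCs, against 16 to 76 counts in *Ythdc1*+/+ HSCs. *Cd3e* and *Cd8a*, which did not pass the filter on low counts, held 0 to 17 counts in *Ythdc1*Δ/Δ samples, against 4 to 7 counts in *Ythdc1*+/+ samples.

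Within sample numbers, several of these genes differed by library. *Lrp6* was higher in the second library in 6 of 6 pairs, in both genotypes, as were 4.72% of all tested genes. *Fzd4*, *Fzd5*, *Fzd7* and *Lrp5* were higher there in 5 of 6 pairs each, and *Fzd8* was lower there in 5 of 6. For *Lrp5* and *Lrp6* 4 of 6 pairs left the exact binomial interval. Each genotype has 3 first and 3 second libraries.

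Other genes of the pathway were listed by role, 100 in all. Many did not pass the filter on low counts, which left 5 of 19 ligands and 6 of 16 inhibitors for testing. Of the tested genes 0 passed an adjusted p of 0.05 in edgeR's quasi-likelihood test, against 0.137% of all tested genes (25 genes). Those named below were partly picked for the smallest p of their list. Over all tested genes 9.48% had an unadjusted p under 0.05 and 16.3% had samples that did not overlap between genotypes. Among the other secreted inhibitors 6 of 16 were tested, 5 higher and 1 lower. *Sfrp4*, of the same family as *Sfrp1*, was at 1.13, 0.966 and 1.29 CPM in *Ythdc1*Δ/Δ samples KO176, KO177 and KO209, against 0.528, 0.332 and 0.171 CPM in *Ythdc1*+/+ samples WT178, WT180 and WT207. Its samples did not overlap, in the direction opposite to *Sfrp1* (log2 fold change 1.74, standard error 0.36, adjusted p = 0.163 from edgeR). *Dkk3* differed by 0.68 on the log2 scale (standard error 0.38), with 8 to 21 counts per sample. *Igfbp4*, the most abundant gene of this list, was at 569 ± 61.9 CPM in *Ythdc1*Δ/Δ HSCs, against 478 ± 64.7 CPM in *Ythdc1*+/+ HSCs (SD, n = 3), and *Kremen1*, a partner of DKK proteins, was at 8.89 ± 0.965 CPM in *Ythdc1*Δ/Δ HSCs, against 9.76 ± 0.915 CPM in *Ythdc1*+/+ HSCs (SD, n = 3).

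Of 19 WNT ligands only 5 passed the filter on low counts, 2 higher and 3 lower. *Wnt6* was at 0.933 ± 0.216 CPM in *Ythdc1*Δ/Δ HSCs, against 0.403 ± 0.186 CPM in *Ythdc1*+/+ HSCs (SD, n = 3), and *Wnt10a* was at 0.845 ± 0.282 CPM in *Ythdc1*Δ/Δ HSCs, against 0.390 ± 0.0623 CPM in *Ythdc1*+/+ HSCs (SD, n = 3). Both ligands had an unadjusted p under 0.05 and no overlap between genotypes, with adjusted p = 0.334 and 0.319 from edgeR. Over all tested genes 9.48% had such a p and 16.3% such a lack of overlap. *Wnt5b*, the most abundant ligand per kilobase, was at 2.88 ± 0.967 CPM in *Ythdc1*Δ/Δ HSCs, against 3.39 ± 0.566 CPM in *Ythdc1*+/+ HSCs (SD, n = 3). *Porcn*, the enzyme that attaches the lipid to WNT, was at 0.307, 0.658 and 1.33 CPM in *Ythdc1*Δ/Δ samples KO176, KO177 and KO209, against 2.04, 1.74 and 1.94 CPM in *Ythdc1*+/+ samples WT178, WT180 and WT207 (log2 fold change -1.27, standard error 0.38, adjusted p = 0.315 from edgeR). *Wls*, which carries WNT to the cell surface, was at 96.2 ± 7.26 CPM in *Ythdc1*Δ/Δ HSCs, against 96.0 ± 2.14 CPM in *Ythdc1*+/+ HSCs (SD, n = 3).

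Of the other receptors 7 of 9 were tested, 3 higher and 4 lower. *Ryk*, a WNT receptor unrelated to the Frizzleds, was at 0.751 ± 0.141 CPM in *Ythdc1*Δ/Δ HSCs, against 1.42 ± 0.190 CPM in *Ythdc1*+/+ HSCs (SD, n = 3), and *Fzd3* was at 2.33 ± 0.573 CPM in *Ythdc1*Δ/Δ HSCs, against 3.65 ± 0.546 CPM in *Ythdc1*+/+ HSCs (SD, n = 3). Neither overlapped between genotypes, with adjusted p = 0.301 and 0.416 from edgeR. *Ptk7*, the highest of them, was at 19.6 ± 5.57 CPM in *Ythdc1*Δ/Δ HSCs, against 17.3 ± 3.46 CPM in *Ythdc1*+/+ HSCs (SD, n = 3), *Fzd9* had a log2 fold change of 0.03, and *Ror1* had at most 26 counts in any sample. In the R-spondin module, which sets receptor turnover, 5 of 6 tested genes were higher and 0 had an unadjusted p under 0.05. Its *Znrf3*, a ligase that removes Frizzleds, was at 18.1 ± 4.31 CPM in *Ythdc1*Δ/Δ HSCs, against 17.8 ± 4.68 CPM in *Ythdc1*+/+ HSCs (SD, n = 3). *Rspo1*, *Lgr5* and *Lgr6* had log2 fold changes of 0.33, 0.08 and -0.43 at 12 to 36 counts per sample.

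All 21 cytoplasmic genes were tested, 9 higher and 12 lower. *Frat2*, which binds the kinase GSK3, was at 78.0 ± 4.61 CPM in *Ythdc1*Δ/Δ HSCs, against 93.8 ± 2.50 CPM in *Ythdc1*+/+ HSCs (SD, n = 3), without overlap (adjusted p = 0.446 from edgeR). *Apc2* and the casein kinases *Csnk1e* and *Csnk1d* had log2 fold changes of -0.48, -0.21 and 0.04. Of 13 tested nuclear genes 4 were higher and 9 lower. *Lef1*, a relative of *Tcf7*, was at 0.917 ± 0.168 CPM in *Ythdc1*Δ/Δ HSCs, against 0.479 ± 0.108 CPM in *Ythdc1*+/+ HSCs (SD, n = 3), and *Jup*, which encodes gamma-catenin, was at 12.996 ± 2.47 CPM in *Ythdc1*Δ/Δ HSCs, against 18.4 ± 2.94 CPM in *Ythdc1*+/+ HSCs (SD, n = 3). Neither overlapped between genotypes, with adjusted p = 0.357 and 0.410 from edgeR. *Tle2*, a co-repressor, had a log2 fold change of -0.62 and *Pygo2*, a co-activator, one of 0.18.

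Genes that WNT induces in other tissues were counted last. Of 12 tested, 9 were higher and 3 lower, and their log2 fold changes had a median of 0.13. Over all 18234 tested genes 8918 were higher, and the median was -0.01. *Lef1*, *Znrf3*, *Rnf43*, *Lgr5* and *Apcdd1* were also counted in the lists above. *Ccnd1*, which encodes cyclin D1, was at 94.3, 70.4 and 54.3 CPM in *Ythdc1*Δ/Δ samples KO176, KO177 and KO209, against 27.2, 46.5 and 42.2 CPM in *Ythdc1*+/+ samples WT178, WT180 and WT207 (log2 fold change 0.92, standard error 0.25, adjusted p = 0.298 from edgeR). Of its exons 23.4% overlap another gene, and of those of *Lef1* 13.7% do. *Myc* was at 712 ± 114 CPM in *Ythdc1*Δ/Δ HSCs, against 623 ± 96.4 CPM in *Ythdc1*+/+ HSCs (SD, n = 3), and *Cd44* at 143 ± 15.8 CPM in *Ythdc1*Δ/Δ HSCs, against 124 ± 9.23 CPM in *Ythdc1*+/+ HSCs (SD, n = 3). Both overlapped between the genotypes. *Axin2*, the target most used as a readout of the beta-catenin branch, had 4 to 11 counts in *Ythdc1*Δ/Δ samples, against 6 to 13 counts in *Ythdc1*+/+ samples. It did not pass the filter on low counts and was not tested.

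**Figure D5:**
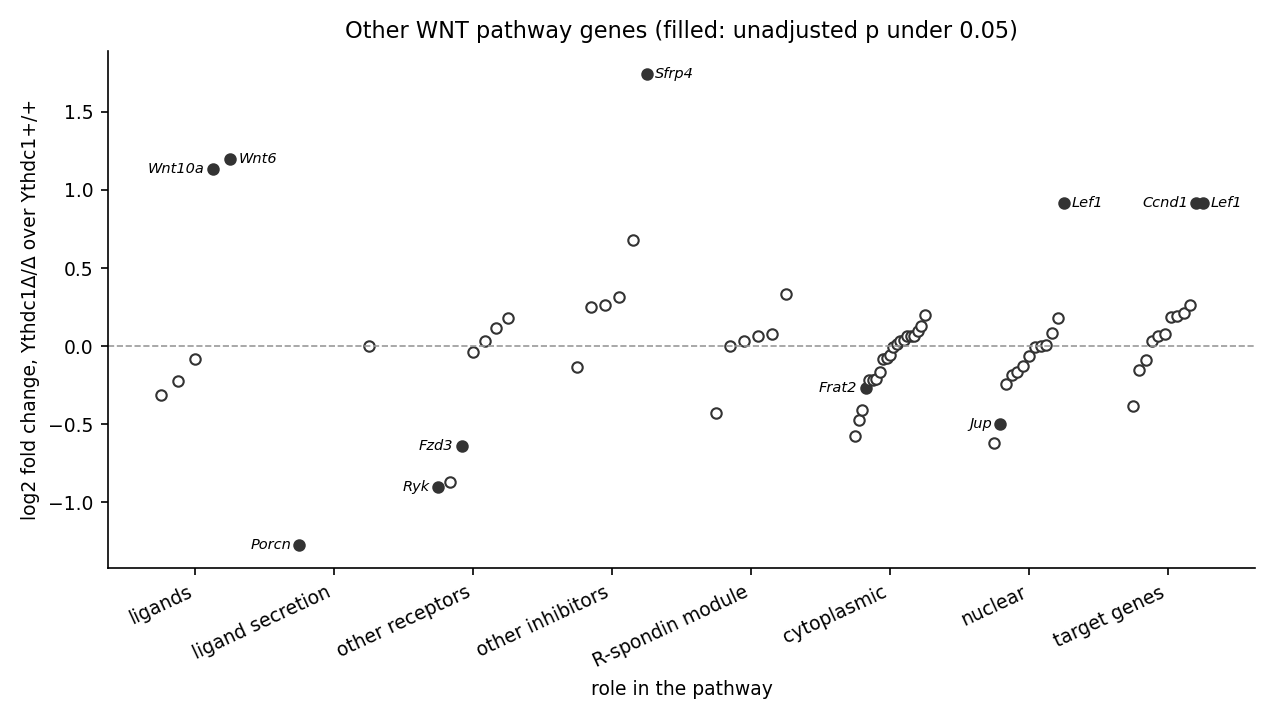
Log2 fold change of *Ythdc1*Δ/Δ over *Ythdc1*+/+ (vertical axis) for the tested genes of the wider WNT lists by role (horizontal axis). Each point is a gene in a list, and filled, named points have an unadjusted p under 0.05, as do 9.48% of all tested genes. A gene that stands in 2 lists, such as *Lef1*, is drawn in both. *Sfrp4* (1.74) is the highest and *Porcn* (-1.27) the lowest, and no gene passed an adjusted p of 0.05.

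Markers of other cells that a sort may hold also differed, and in bulk RNA fewer cells of a type and less RNA per cell cannot be told apart. Of the stromal and osteoblast markers 10 of 11 tested were higher. Of these 3 (*Lepr*, *Adipoq* and *Sparc*) had an adjusted p under 0.05 in edgeR, where 0.137% of all tested genes passed in either direction. *Lepr* held 73 to 87 counts in *Ythdc1*Δ/Δ samples, against 6 to 20 in *Ythdc1*+/+ samples, and *Adipoq* held 92 to 166, against 8 to 24. The lowest *Ythdc1*+/+ count of both was under the filter's minimum count of 10. The summed level of the stromal and osteoblast markers was 73.1 to 87.1 CPM in *Ythdc1*Δ/Δ samples, against 60.5 to 76.9 CPM in *Ythdc1*+/+ samples. Of the B-cell markers 11 of 12 were higher, with a summed level of 125 to 172 CPM in *Ythdc1*Δ/Δ samples, against 127 to 141 CPM in *Ythdc1*+/+ samples. Markers of HSCs and early progenitors were 4 higher and 11 lower of 15 (median -0.34 on the log2 scale). Their summed level was 3051 to 3272 CPM in *Ythdc1*Δ/Δ samples, against 3083 to 3427 CPM in *Ythdc1*+/+ samples. The 4 higher were *Ly6a*, *Cd34*, *Cd48* and *Flt3*, with log2 fold changes of 0.04, 0.04, 0.29 and 0.24. The paper's gate for long-term HSCs takes cells negative for CD48 and for FLK2, the product of *Flt3*. All 10 granulocyte markers were higher, with a summed level of 11976 to 23743 CPM in *Ythdc1*Δ/Δ samples, against 10272 to 13618 CPM in *Ythdc1*+/+ samples. Macrophage markers were 6 higher of 8, and their summed level did not overlap, at 49.0 to 59.7 CPM in *Ythdc1*Δ/Δ samples, against 31.6 to 48.4 CPM in *Ythdc1*+/+ samples. Megakaryocyte markers were 0 higher of 5, at 190.0 to 333.3 CPM in *Ythdc1*Δ/Δ samples, against 309 to 462 CPM in *Ythdc1*+/+ samples. Erythroid markers were 7 higher of 8, at 42.8 to 56.2 CPM in *Ythdc1*Δ/Δ samples, against 37.4 to 53.2 CPM in *Ythdc1*+/+ samples. Endothelial markers were 4 higher of 7, at 170.0 to 189 CPM in *Ythdc1*Δ/Δ samples, against 187 to 198 CPM in *Ythdc1*+/+ samples. Several of these sums were carried by 1 gene, so each was taken again without its most abundant gene, a step added after the values were seen. *Pdgfrb*, a marker of mural and stromal cells, was at 48.5 to 53.9 CPM in *Ythdc1*Δ/Δ samples, against 54.2 to 70.3 CPM in *Ythdc1*+/+ samples, and the other stromal markers summed to 24.6 to 33.3 CPM in *Ythdc1*Δ/Δ samples, against 6.23 to 11.98 CPM in *Ythdc1*+/+ samples, without overlap. Without *Cd79b* the B-cell markers summed to 44.3 to 71.1 CPM in *Ythdc1*Δ/Δ samples, against 32.7 to 37.02 CPM in *Ythdc1*+/+ samples, which did not overlap either. The granulocyte sum without *Mpo* was higher in all 3 *Ythdc1*Δ/Δ samples (9115 to 12844 CPM, against 7213 to 8849 CPM in *Ythdc1*+/+ samples). The HSC and progenitor sum without *Cd34*, which still held *Cd48* and *Flt3*, was lower in all 3 (1776 to 1864.5 CPM, against 1902.5 to 2127 CPM in *Ythdc1*+/+ samples). The other lists overlapped after this step. No marker was at 0 in all samples. The part of these cells in the *Fzd8* and *Sfrp1* values was not tested.

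The genes at 10 CPM or more whose log2 CPM followed *Fzd8* most closely over the 12 libraries were *Izumo4*, *Smap1* and *Capg*, with Pearson's r of 0.92, 0.90 and 0.90. Those closest to *Sfrp1* were *Gstt1*, *Slc39a13* and *Stat3*, with r of 0.93, 0.92 and 0.92. These values are a description of libraries that share 6 sample numbers and 2 genotypes. All 6 genes had lower means in *Ythdc1*Δ/Δ HSCs, with log2 fold changes from -0.86 for *Gstt1* to -0.24 for *Stat3*. That direction follows from the choice, since they were picked for following *Fzd8* or *Sfrp1*, both lower there, over the same libraries. Of these genes 0 passed an adjusted p of 0.05 in edgeR.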

How the data were processed

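RNA of sorted HSCs was made into cDNA with a low-input kit and sequenced as read pairs. The values the authors deposited are raw counts, the number of read pairs that featureCounts 2.0.1 assigned to each GENCODE vM23 gene of mm10, on either strand. All 12 sample columns were used. The 2 libraries of each number were summed to 3 samples per genotype, and the genotypes were compared with edgeR 4.0.16 under R 4.3.3. Low counts were removed by filterByExpr (minimum count 10, minimum total 15), totals were scaled by TMM, and the robust quasi-likelihood fit was used with its legacy option off. Log2 fold changes are *Ythdc1*Δ/Δ over *Ythdc1*+/+, and adjusted p-values follow Benjamini and Hochberg, over all 18234 tested genes. Identifiers were matched to symbols for 55154 genes. Binomial and Poisson intervals are exact, at 95%, and like the limits for 0 they cover counting error only. DESeq2 1.42.0 and voomLmFit of limma 3.58.1 served as alternatives, with other scalings, filters and samples left out. The edgeR and DESeq2 fits of summed samples were tested on simulated data. Differences were placed there only in genes at higher levels than *Fzd8* and *Sfrp1*, so counts as low as theirs were not covered. The fits of 12 libraries were not simulated. From each wider list were named the genes that passed, up to 3 with the smallest p and up to 2 with the highest level per kilobase. The members and lists were chosen with earlier results of these data known. *Ythdc1* counts cover all exons and do not check the deletion. Figures used Python 3.11.15 and matplotlib 3.10.9.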

Additional observations from a re-analysis of the deposited data

Results flagged for a closer look

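Dixon's test over the 6 libraries of a genotype, for 10 genes and 2 genotypes, marked 2 of 20 groups, where chance marks about 1 in 20. Library WT207_2 stood apart from the other *Ythdc1*+/+ libraries for *Sfrp1*, at 2.48 CPM, and for *Ctnnb1*, at 253.5 CPM. Libraries of a number are not independent samples.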

How the results depend on the processing

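The count of the 10 genes past an adjusted p of 0.05, 0 here, was 2 with the 12 libraries as separate samples, 2 in DESeq2, 2 with the library digit as replicate block, 1 without a filter on low counts and 1 with a term for KO209 and WT207. It was 0 in the remaining alternatives. At an unadjusted p under 0.05 with the stricter filter 1 gene was left, since it removed *Fzd8* and *Fzd5*. That threshold left 3 without KO176, where *Ctnnb1* joined and 1241 of 19083 tested genes passed. It left 3 also without KO209, where *Tcf7* joined and 3062 of 18735 passed, and in the first libraries alone, where *Ctnnb1* joined and 2041 of 15791 passed. The count of genes without overlap, 2 here, was 1 in the fits of 12 libraries (edgeR, voomLmFit and the replicate block), where 3.70% of all tested genes did not overlap, and 1 in the first libraries alone, where 19.7% did not. It was 2 to 4 when a sample was left out. The 4 without KO209 stand beside 34.7% of all tested genes, and the shares without another sample were 22.1% to 26.8%, against 16.3% with all samples. *Fzd8* and *Sfrp1* kept their direction in each alternative that gave a value, and so did *Lrp5*, *Lrp6*, *Ctnnb1* and *Tcf7*.

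Signs turned for genes near 0, and the cause was not tested. The log2 fold change of *Fzd4* was -0.0068 in voomLmFit, -0.0051 with upper quartile scaling, -0.0021 with the stricter filter, -0.16 in the second libraries and -0.13 without library KO177_1. In the second libraries *Fzd5* was at -0.16 and *Fzd6* at -0.0029. With a sample left out, *Fzd4* spanned -0.18 to 0.13, *Fzd6* -0.37 to 0.28 and *Fzd7* -0.20 to 0.058. The first libraries, the second libraries and the data without KO177_1 were chosen after seeing the data.

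Over all genes 25 were called here and 1 to 751 in the alternatives, 1 without WT178 and 751 with 12 separate libraries. No paired analysis was possible because the genotypes share no sample numbers. Depth limits *Fzd8*, *Sfrp1*, *Fzd4* and *Fzd5*, which rested on at most 89 counts per sample.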
